A study of Drosophila melanogaster with 24 samples.

Results

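The odorant-binding proteins (OBPs) of Drosophila melanogaster are described here in the heads of AD and WT flies at 4 ages. The members are all genes whose symbol starts with Obp and a number, together with *lush*. They make up 51 of the 13700 annotated genes listed in the expression files, and 37 of them reached a mean of at least 1 FPKM (fragments scaled to transcript length and to the depth of the library) in some group. The other 14 stayed below that level. AD flies carry a transgene for the human Aβ42 peptide in the w1118 background, driven in neurons by elav-GAL4 c155, and WT flies came from w1118 crossed with the same driver line. The sample labels call the AD genotype hAPP transgenic, while the study's methods name Aβ42. Male heads were collected at days 3, 10, 20, and 30 post eclosion, which gave 8 groups of 3 replicates and a total of 24 libraries. Each replicate was a pool of many heads, and the sources used here do not say whether replicates came from separate crosses. The p-values therefore measure only the spread between these pools.

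OBPs are small secreted proteins that bind hydrophobic molecules. In the antenna and the taste organs the support cells at the base of a sensory hair release them into the fluid around the dendrites of the receptor neurons. There they carry or buffer odorants and pheromones. Other members are made outside the sense organs, in the fat body, in glia or in the male reproductive tract, so that the family takes in proteins of quite different tissues.

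The libraries held 12884945 to 26731357 expected counts, the estimated numbers of sequenced fragments per gene. By the lengths given for transcripts that the authors added, the libraries fell into 2 sets, taken as a first and a second processing run. The runs were thus inferred, and no sample label names them. The first set held 6 libraries, namely AD and WT replicate 1 at each age before day 30. The other 18 libraries made up the second, so that day 30 is present in the second run alone. Expression levels of a gene are given as CPM, its expected count scaled to library size as counts per 1e+06. FPKM is used only to compare genes, since it accounts for length. Tests were made with edgeR over all 10479 genes that passed the filter on low counts, of which 35 are OBP genes. A gene is called up- or downregulated at a false discovery rate (FDR) under 0.05 and an absolute log2 fold change over 1. The library labelled AD day 30 replicate 3 stood apart. The eye pigment gene *w*, whose marker copies such transgenes commonly carry, had 89.7 CPM there against 179.7 to 256 CPM in the other 11 AD libraries and 64.1 to 107 CPM in the 12 WT libraries. This goes against its label, and the day 30 calls in AD are given with and without it. Transcripts of the male accessory gland, which a head should lack, were high in replicate 2 of AD at day 3 and in replicate 1 of WT at that age. *Acp36DE*, a seminal fluid protein, had 38.7 CPM in AD day 3 replicate 2 and 124 CPM in WT day 3 replicate 1. Its highest level in any other library was 1.41 CPM.

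OBP transcripts were abundant in the heads. Their FPKM values summed to between 7508 and 14672 per library. The 6 most abundant members, *Obp44a*, *Obp19d*, *Obp99c*, *Obp56d*, *Obp99b*, and *Obp56g*, held 82.5% of the sum of mean FPKM. *Obp44a*, a protein of glia in the central nervous system, averaged 2995 FPKM over the 24 libraries and lies on chromosome 2R from 8134170 to 8135315 (release 6). *Obp19d* followed with 1979 FPKM and *Obp99c* with 1338 FPKM. Another 5 members, *Obp56e*, *Obp49a*, *Obp57c*, *Obp50e*, and *Obp56a*, averaged between 146 and 449 FPKM. Between 10 and 100 FPKM there were 10 members, from *Obp57a* with 43.5 FPKM to *Obp19c* with 10.5 FPKM. The pheromone-binding protein gene *lush* averaged 8.82 FPKM, while *Obp83a* and *Obp83b* averaged 25.2 and 23.8 FPKM. In all, 29 of the 51 members were listed in each of the 24 libraries.

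**Figure D1:**
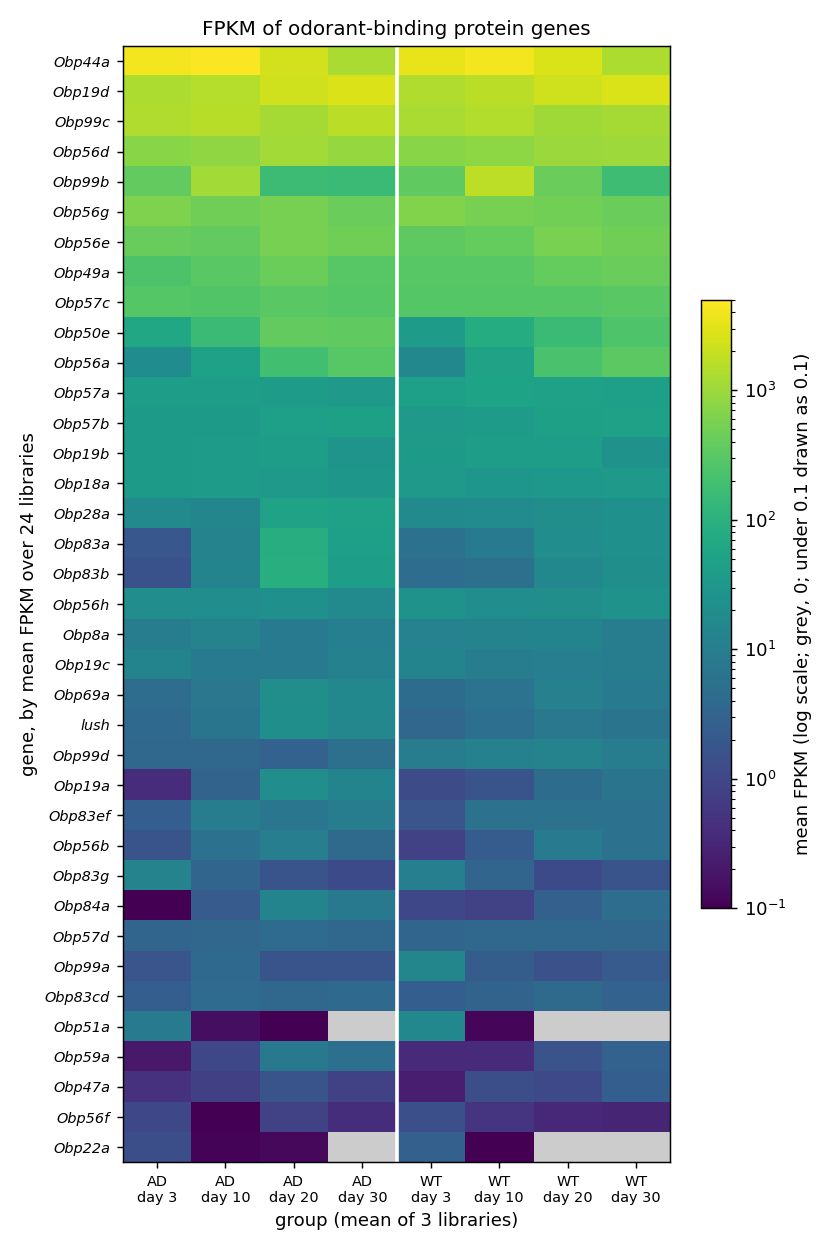
Mean FPKM of the 37 OBP genes with at least 1 FPKM in some group (rows, ordered by the mean over all libraries) in the 8 groups of 3 libraries (columns, AD left of WT, days 3 to 30), on a log color scale. *Obp44a*, *Obp19d*, and *Obp99c* are among the 4 highest in every group, while *Obp99b* reaches 1676 FPKM in WT at day 10, and the rows of *Obp83a*, *Obp83b*, *Obp19a*, *Obp84a*, and *Obp59a* are brightest in AD at day 20.

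The members lie in clusters, 28 of them on chromosome 2R, 12 on 3R, 6 on X, 3 on 3L, and 2 on 2L. Abundance differed widely within a cluster. On the X chromosome *Obp19a*, *Obp19b*, *Obp19c*, and *Obp19d* follow each other with gaps of 211, 108, and 648 bases, yet their mean levels were 6.33, 36.4, 10.5, and 1979 FPKM. In the Obp56 cluster on 2R, *Obp56a* and *Obp56b* lie 205 bases apart on opposite strands and averaged 146 and 4.91 FPKM. Their neighbor *Obp56c* stayed below 1 FPKM in every group, and *Obp56d*, the next gene, averaged 894 FPKM.

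The comparison of AD with WT heads of the same age asks whether Aβ42 in neurons goes with another OBP expression. No OBP gene passed the threshold in edgeR at day 3, 10, 20, or 30 (0 of 35 tested at each age). Over all genes 0.0286%, 0.172%, 0.0954%, and 0.0191% were called at the 4 ages, and at day 10 0.0859% were called higher and 0.0859% lower. At an unadjusted edgeR p under 0.05 there were 2, 1, 6, and 1 OBP genes, beside 372, 320, 464, and 824 of all 10479 genes. DESeq2 and limma called 0 OBP genes at each age as well. For some genes below, the AD and WT libraries of an age are said to be apart or not to overlap. How many of all genes were apart in the same way was not counted, so this describes the libraries only. The median log2 fold change of the 35 tested OBP genes was 0.02, 0.02, 0.22, and 0.00 at days 3, 10, 20, and 30, and over all genes it stayed between -0.01 and 0.00. Averaged over the 4 days, 1 OBP gene was called, *Obp99d*, which was downregulated in AD. In that comparison 0.315% of all genes were called, and 0.0382% were called lower.

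*Obp99d* lies on chromosome 3R from 29714505 to 29715004. Its levels in AD heads were 1.41, 1.43, and 1.57 CPM at day 3, 1.65, 1.69, and 0.660 CPM at day 10, and 1.5, 0.706, and 0.797 CPM at day 20. At day 30 the AD libraries had 1.0, 0.527, and 4.13 CPM. In WT heads the levels were 3.52, 4.54, and 2.72 CPM at day 3, 5.81, 3.23, and 3.87 CPM at day 10, 6.08, 4.30, and 2.61 CPM at day 20, and 4.08, 2.89, and 3.17 CPM at day 30. The genotypes did not overlap at days 3, 10, and 20. At day 30 they overlapped only through the library labelled AD day 30 replicate 3, the same library in which *w* was at the WT level. Averaged over the days, the log2 fold change was -1.48 (SE 0.28, edgeR FDR 0.0081). Without that library it was -1.80 (FDR 0.000182). The differences at single ages were -1.29, -1.69, -2.09, and -0.84 on the log2 scale, none past the threshold over all genes, with FDR values from 0.345 to 1. Without the library labelled AD day 30 replicate 3 the value at day 30 was -2.13 (FDR 0.0974). Its neighbor *Obp99b*, 1249 bases away on the other strand, was not called, with a log2 fold change of -0.52 averaged over the days (edgeR FDR 0.749).

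**Figure D2:**
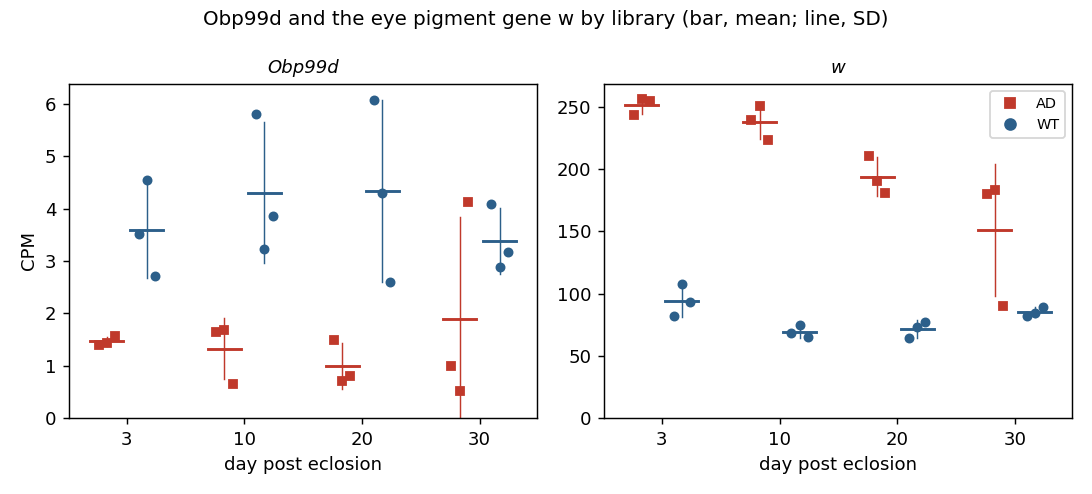
Expression in CPM of *Obp99d* (left) and *w* (right) in every library by day post eclosion, AD (squares) left of WT (circles), with the mean of 3 libraries as a bar and the SD as a line. *Obp99d* was lower in AD at days 3 to 20, and the AD library that stands apart at day 30, with 4.13 CPM of *Obp99d* and 89.7 CPM of *w*, is replicate 3.

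Against day 3, the older AD heads had 2, 11, and 11 called OBP genes at days 10, 20, and 30, where 1.21%, 5.44%, and 7.68% of all genes were called. The older WT heads had 1, 5, and 5, where 0.563%, 2.33%, and 4.49% of all genes were called. At day 10 all called OBP genes were upregulated, where 0.305% of all genes were called higher in AD, 0.907% lower in AD, and 0.0763% higher in WT. All 3 ages share the day 3 libraries of their genotype. In AD heads 10 of the 11 genes called at day 20 were upregulated and 1 downregulated, where 2.98% of all genes were called higher and 2.46% lower. At day 30 there were 9 upregulated and 2 downregulated, where 3.88% of all genes were called higher and 3.8% lower. In WT heads 3 were upregulated and 2 downregulated at day 20, where 0.811% of all genes were called higher and 1.52% lower. At day 30 there were again 3 upregulated and 2 downregulated, where 1.63% of all genes were called higher and 2.85% lower. The median log2 fold change of the 35 tested OBP genes was 0.29 at day 20 and 0.15 at day 30 in AD, and 0.31 and 0.26 in WT, with medians over all genes between -0.01 and 0.02. Averaged over the genotypes, 14 OBP genes were called between day 30 and day 3, 11 of them upregulated and 3 downregulated. Of all genes 8.85% were called there, 3.91% higher and 4.93% lower. The difference between the genotypes in the change to day 30 was not past the threshold for any OBP gene (0 of 35), nor for any gene. At an unadjusted p under 0.05 there were 0 OBP genes and 387 of all 10479 genes in this difference. DESeq2 and limma also called 0 OBP genes in it, with 1 at an unadjusted p under 0.05 in DESeq2. A joint edgeR test of genotype by day called 0 OBP genes and 0.0191% of all genes. *Obp99a* alone of the OBP genes had an unadjusted p under 0.05, with an FDR of 1, where 247 of all 10479 genes had such a p. An effect called in AD and not in WT is thus not shown to differ between them.

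**Figure D3:**
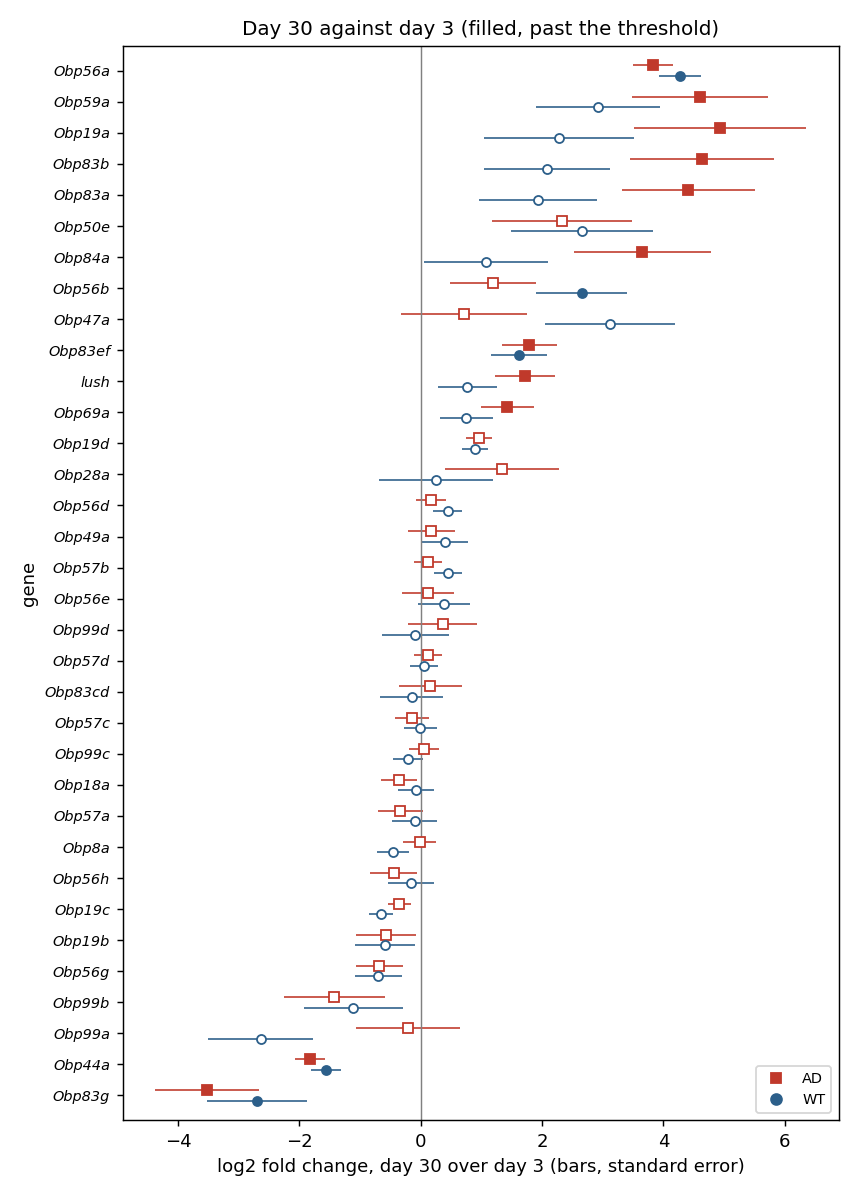
Log2 fold change of day 30 over day 3 with its standard error for 34 of the 35 tested OBP genes, in AD (squares) above WT (circles), ordered by the average of the genotypes. Filled symbols passed the threshold in that genotype. *Obp56a* is at the top and *Obp83g* at the bottom, while *Obp19a*, *Obp83a*, *Obp83b*, and *Obp84a* have larger fold changes in AD than in WT, with wide error bars. *Obp51a* is not drawn because its day 30 libraries were all at 0.

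Upregulation with age in AD heads was mostly that of OBPs known from the antenna. *Obp83a* and *Obp83b*, also known as OS-F and OS-E, are secreted in the trichoid hairs, many of which detect pheromones, and *lush* is needed there for the response to the male pheromone cis-vaccenyl acetate. *Obp59a* serves humidity sensing, while *Obp69a*, *Obp84a*, *Obp19a*, and *Obp28a* are further antennal members. Of 10 antennal OBPs, 7 were upregulated in AD both at day 20 and at day 30, and 0 were in WT at either age with edgeR. There 2 of the 10 had an unadjusted edgeR p under 0.05 in WT at each age. Of all 10479 genes, 2320 and 2757 had such a p in WT at days 20 and 30. In WT, DESeq2 called *Obp69a* at day 20 and *Obp59a* at day 30. At day 30 limma called *Obp19d* on log2(FPKM + 1) and both *Obp19d* and *Obp59a* on log2(FPKM + 0.1). With the replicate number as a block, edgeR called *Obp59a* in WT at day 30, with 6 of the 10 at an unadjusted p under 0.05. The 10 genes were listed with earlier results of these data known, so their count is no independent evidence of a direction. Their median log2 fold change against day 3 was 3.58 at day 20 and 2.69 at day 30 in AD, and 1.15 and 0.98 in WT. The other 3 of the 10, *Obp28a*, *Obp19d*, and *Obp56d*, were not called with edgeR, while limma called *Obp19d* at day 30 in AD as well.

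*Obp83b*, on chromosome 3R from 5976177 to 5976817, had 0.228, 0.587, and 1.10 CPM in AD heads at day 3 and 2.08, 4.21, and 9.53 CPM at day 10. It reached 13.7, 34.4, and 55.4 CPM at day 20, and had 17.3, 26.8, and 0.393 CPM at day 30. WT heads had 1.53, 1.72, and 2.57 CPM at day 3, 0.323, 0.660, and 6.38 CPM at day 10, 2.13, 7.32, and 8.82 CPM at day 20, and 8.85, 7.62, and 7.89 CPM at day 30. AD libraries were thus all below WT at day 3 and all above WT at day 20, and at day 30 the library labelled AD day 30 replicate 3 was lower than every WT library while the other AD libraries were higher. The log2 fold change against day 3 was 5.85 at day 20 (SE 1.23, edgeR FDR 0.0038) and 4.63 at day 30 (SE 1.19, FDR 0.0094) in AD. In WT it was 1.65 (SE 1.03, FDR 0.377) and 2.08 (SE 1.04, FDR 0.213). Between AD and WT the log2 fold change was -1.69 at day 3 (SE 1.18) and 2.51 at day 20 (SE 1.01, FDR 0.862), and the joint test of genotype by day gave an unadjusted p of 0.0901 with edgeR.

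*Obp83a* lies 931 bases from *Obp83b* on the same strand and moved alongside it. In AD heads it had 1.22, 1.04, and 1.88 CPM at day 3, 1.92, 7.51, and 19.0 CPM at day 10, 19.8, 58.1, and 102 CPM at day 20, and 40.0, 43.8, and 3.15 CPM at day 30. Its WT levels were 3.71, 3.92, and 4.69 CPM at day 3, 0.807, 4.16, and 16.2 CPM at day 10, 3.65, 14.4, and 24.5 CPM at day 20, and 16.0, 14.5, and 16.4 CPM at day 30. AD was below WT without overlap at day 3 and overlapped with it at the later ages. The log2 fold change against day 3 was 5.45 at day 20 (SE 1.13, edgeR FDR 0.0033) and 4.41 at day 30 (SE 1.09, FDR 0.0073) in AD, against 1.78 and 1.93 in WT, not past the threshold.

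*Obp19a*, on the X chromosome from 20415744 to 20416521, was close to 0 in young heads. In AD it had 0.0380, 0, and 0.626 CPM at day 3, 0.431, 0.996, and 3.66 CPM at day 10, 4.90, 11.4, and 14.6 CPM at day 20, and 11, 7.17, and 0.328 CPM at day 30. In WT it had 0.535, 0.275, and 1.14 CPM at day 3, 0, 0.792, and 1.98 CPM at day 10, 0.913, 2.11, and 3.81 CPM at day 20, and 3.40, 3.03, and 2.97 CPM at day 30. The day 20 libraries did not overlap, and AD was higher. *Obp59a* had 0, 0.326, and 0.235 CPM at day 3, 0.353, 0.766, and 1.76 CPM at day 10, 3.71, 9.46, and 8.21 CPM at day 20, and 4.89, 7.57, and 0.590 CPM at day 30 in AD. In WT its levels were 0.344, 0.275, and 0.378 CPM at day 3, 0.0404, 0.198, and 0.809 CPM at day 10, 0.565, 1.43, and 2.12 CPM at day 20, and 4.22, 1.55, and 1.96 CPM at day 30. Again AD was above WT without overlap at day 20. The log2 fold changes against day 3 in AD were 5.66 at day 20 (SE 1.45) and 4.93 at day 30 (SE 1.42) for *Obp19a*, and 5.31 (SE 1.14) and 4.60 (SE 1.12) for *Obp59a*, with edgeR FDR values from 0.0043 to 0.0177.

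*Obp84a* had 0.760, 0.0652, and 0 CPM at day 3, 2.43, 0.919, and 2.49 CPM at day 10, 6.74, 8.33, and 11 CPM at day 20, and 4.06, 7.17, and 0.656 CPM at day 30 in AD heads. In WT heads it had 1.87, 0.206, and 1.36 CPM at day 3, 1.29, 0, and 1.35 CPM at day 10, 3.26, 1.58, and 2.19 CPM at day 20, and 1.91, 1.62, and 3.84 CPM at day 30. The genotypes were apart at day 20 alone. Its log2 fold change against day 3 in AD was 4.78 at day 20 (SE 1.18, edgeR FDR 0.0105) and 3.65 at day 30 (SE 1.14, FDR 0.0269). The gene model of *Obp84a* differed between the processing runs, with a transcript length of 1956 to 4228 bases in the first and 663 to 673 bases in the second. In the second run alone its log2 fold changes were 7.75 and 6.48.

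For *lush*, on 3L from 19604398 to 19606090, AD heads had 4.07, 1.30, and 5.32 CPM at day 3, 4.12, 4.06, and 8.65 CPM at day 10, 11.1, 21.2, and 23.0 CPM at day 20, and 15.1, 16.2, and 3.93 CPM at day 30. WT heads had 3.02, 2.13, and 3.86 CPM at day 3, 5.05, 3.30, and 4.95 CPM at day 10, 5.91, 6.26, and 6.0 CPM at day 20, and 4.08, 6.49, and 4.79 CPM at day 30. WT levels stayed within 2.13 to 6.49 CPM over all ages, and every AD library exceeded them at day 20. The log2 fold change against day 3 in AD was 2.37 at day 20 (SE 0.50, edgeR FDR 0.0038) and 1.72 at day 30 (SE 0.49, FDR 0.0170). Between AD and WT it was 1.6 at day 20 (SE 0.48, unadjusted p = 0.0037, edgeR FDR 0.434), and 0.85 averaged over the days (SE 0.24, edgeR FDR 0.110), which did not pass the threshold.

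*Obp69a* had 2.24, 2.28, and 2.11 CPM at day 3, 2.20, 3.91, and 3.66 CPM at day 10, 7.56, 9.10, and 9.97 CPM at day 20, and 6.30, 9.94, and 1.64 CPM at day 30 in AD heads. WT heads had 2.03, 1.65, and 2.57 CPM at day 3, 1.90, 3.30, and 3.69 CPM at day 10, 4.35, 6.41, and 4.44 CPM at day 20, and 4.15, 3.81, and 2.56 CPM at day 30. The genotypes overlapped at day 3 and were apart at day 20. Its log2 fold change against day 3 in AD was 2.0 at day 20 (SE 0.45, edgeR FDR 0.0056) and 1.43 at day 30 (SE 0.44, FDR 0.0261). *Obp28a* had from 1.41 to 38.2 CPM in AD and from 0.969 to 17.2 CPM in WT, and no comparison of it passed the threshold. Replicate 1, the library of the first run, was below the mean of the other replicates in each of the 6 groups with both runs for *Obp83a*, *Obp83b*, *Obp19a*, and *Obp28a*.

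**Figure D4:**
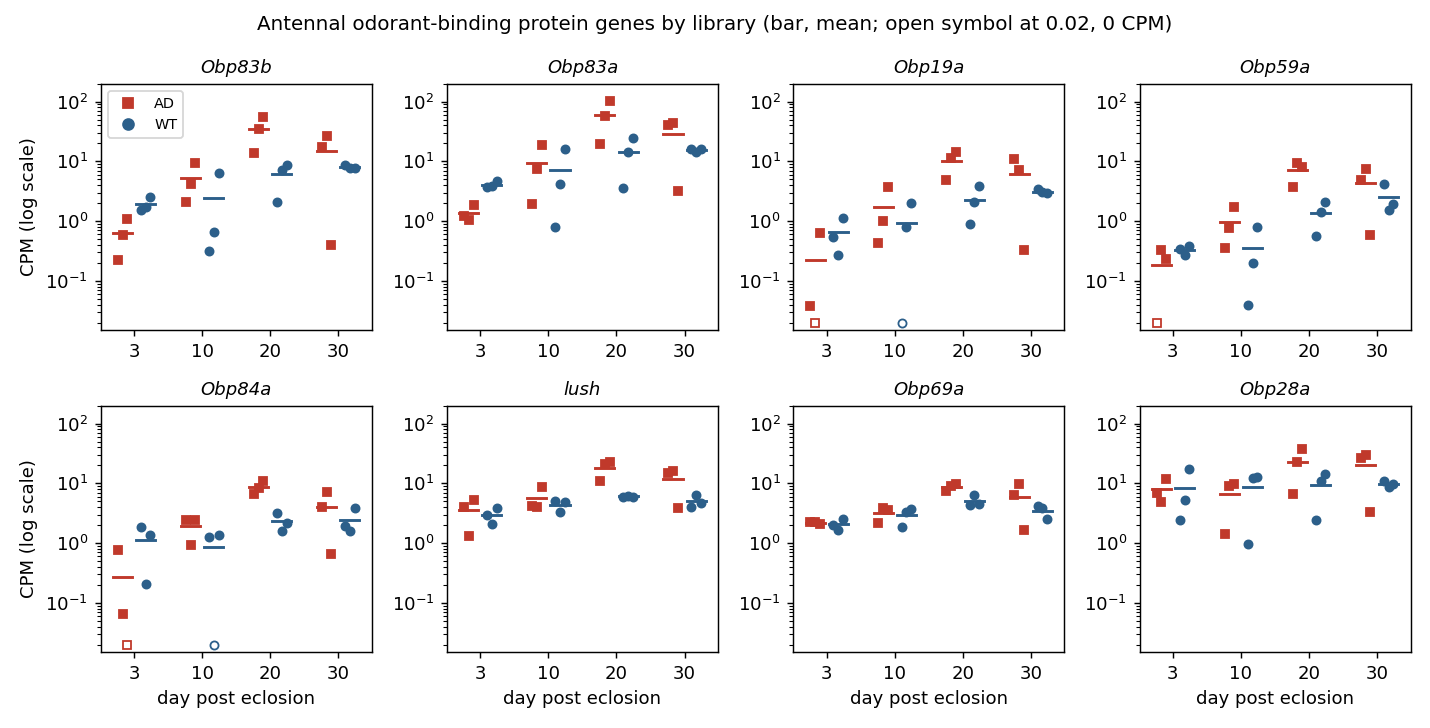
Expression in CPM (log scale) of 8 antennal OBP genes in each library by day post eclosion, AD (squares) left of WT (circles), with the arithmetic mean of 3 libraries as a bar and libraries at 0 CPM drawn as open symbols at the bottom. AD is above WT without overlap at day 20 for *Obp83b*, *Obp19a*, *Obp59a*, *Obp84a*, *lush*, and *Obp69a*, though 0 of the 8 were called between AD and WT. The low AD symbol at day 30 is replicate 3 in every panel.

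Within the second processing run, *Obp83b*, *Obp83a*, *Obp19a*, *Obp59a*, *Obp84a*, and *lush* passed the threshold in AD at days 20 and 30, and *Obp69a* at day 20, with FDR 0.0546 at day 30. Without the library labelled AD day 30 replicate 3, all 7 passed at day 30, and the log2 fold changes were 5.19 for *Obp83b*, 4.93 for *Obp83a*, 5.45 for *Obp19a*, 5.09 for *Obp59a*, 4.17 for *Obp84a*, 1.86 for *Obp69a*, and 2.12 for *lush*. Leaving out AD day 3 replicate 2 reduced the number of called OBP genes in AD to 7 at day 20 and 6 at day 30. *Obp19a*, *Obp84a*, and *Obp83ef* were among those lost at both ages, and *Obp69a* and *lush* at day 30. Without both libraries that held accessory gland transcripts, the numbers were 8 and 7. Leaving out AD day 30 replicate 1 gave 7 at day 30, again without *lush*, *Obp19a*, *Obp69a*, and *Obp84a*, and leaving out AD day 30 replicate 2 gave 8, without *lush*, *Obp69a*, and *Obp84a*. Without AD day 3 replicate 1, *Obp19a* was lost at both ages and *Obp69a* at day 30, and without AD day 3 replicate 3, *Obp69a* and *Obp84a* were lost at day 30. *Obp83a*, *Obp83b*, and *Obp59a* passed in AD at both ages whichever library was left out.

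Some other antennal genes moved beside these OBPs, and others did not. *Os-C*, a secreted antennal protein, had 27.1, 53.4, and 70.8 CPM in AD heads at day 20 and 0.114, 0.130, and 2.11 CPM at day 3. Its WT levels were 7.26, 11.1, and 14.0 CPM at day 20 and 2.52, 1.45, and 3.18 CPM at day 3. Among 7 listed genes of antennal secretions and odorant breakdown, *Os-C*, *a5*, and *a10* were upregulated at day 20 in AD, and *a10* alone in WT. The others were not called there. In AD, *Est-6* had 572, 218, and 194 CPM at day 3 and 230, 239, and 181 CPM at day 20. *Snmp2* had 19.9, 12.3, and 16.4 CPM, then 28.8, 17.4, and 20.6 CPM. *antdh* had 15.1, 11.7, and 17.7 CPM, then 13.5, 29.2, and 35.2 CPM. *Jhedup* had 0, 1.04, and 5.87 CPM, then 13.2, 19.1, and 24.3 CPM. The odorant coreceptor gene *Orco*, which marks olfactory neurons, had 10.7, 13.0, and 19.7 CPM in AD at day 20 and 2.77, 4.30, and 5.09 CPM at day 3, with 3.00, 5.05, and 5.78 CPM at day 20 and 3.59, 3.23, and 6.58 CPM at day 3 in WT. Of the 4 tested coreceptor and olfactory neuron genes 0 were called in any comparison. Their summed level was 54.8 to 72.2 CPM at day 20 and 33.8 to 44.3 CPM at day 3 in AD, and 39.1 to 44.6 and 32.6 to 41.9 CPM in WT, while *Ir8a* was at 0 in 5 of the 6 day 3 libraries. Among 3 genes of sensillum support cells, *Amt* was upregulated in AD, by a log2 fold change of 2.56 at day 20 and 2.14 at day 30, and *sv* was downregulated at day 30. In the library labelled AD day 30 replicate 3, *Os-C* had 2.75 CPM and *Orco* 2.10 CPM, against 34.1 and 38.0 CPM of *Os-C* and 18.7 and 13.1 CPM of *Orco* in AD replicates 1 and 2 of that age. *a5*, *Jhedup*, and *a10* were also lower there, with 0.459, 0.984, and 21.6 CPM. *Snmp2* had 17.5 CPM against 24.4 and 22.2 CPM in replicates 1 and 2. *Est-6* and *antdh* were not low, with 278 and 25.9 CPM. Replicates 1 and 2 had 245 and 281 CPM of *Est-6* and 25.7 and 29.1 CPM of *antdh*. The part of these genes in the OBP results was not tested. In whole heads, fewer antennal cells or antennae and less RNA per cell cannot be told apart.

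*Obp56a* was upregulated at each later age in both genotypes. It lies on 2R from 19697723 to 19698508. In AD heads it had 7.30, 11.3, and 5.40 CPM at day 3, 21.6, 20.5, and 16.9 CPM at day 10, 62.6, 50.5, and 112 CPM at day 20, and 106, 122, and 114 CPM at day 30. In WT heads it had 4.59, 8.05, and 7.34 CPM at day 3, 26.3, 12.5, and 25.3 CPM at day 10, 95.1, 99.5, and 77.9 CPM at day 20, and 117, 144, and 122 CPM at day 30. In each genotype no library of day 10, 20, or 30 overlapped with day 3, and AD and WT overlapped at every age. At day 30 against day 3 the log2 fold change was 3.83 in AD (SE 0.33, edgeR FDR 4.37e-07) and 4.27 in WT (SE 0.34, FDR 3.04e-07), a 14.2-fold and 19.3-fold increase. At day 10 it was 1.30 in AD (SE 0.31, FDR 0.0302) and 1.70 in WT (SE 0.32, FDR 0.0171). The calls at days 20 and 30 held with every library left out, and those at day 10 did not, since they were lost within the second run (log2 fold changes 1.14 and 1.29) and without any of AD day 3 replicates 1 and 3, the AD day 10 replicates, WT day 3 replicates 1 and 2, and WT day 10 replicate 1.

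Its neighbor *Obp56b* was upregulated at a much lower level. In AD heads it had 0.874, 0.391, and 1.02 CPM at day 3, 2.78, 1.07, and 3.96 CPM at day 10, 3.30, 2.89, and 6.62 CPM at day 20, and 2.47, 1.58, and 1.18 CPM at day 30. WT heads had 0.420, 0, and 0.681 CPM at day 3, 0.848, 0.594, and 1.80 CPM at day 10, 2.52, 4.07, and 4.23 CPM at day 20, and 2.65, 1.83, and 2.56 CPM at day 30. Levels were highest at day 20 and lay above all day 3 levels at days 20 and 30 in both genotypes. The log2 fold change against day 3 was 2.47 at day 20 in AD (SE 0.72, edgeR FDR 0.0255), and 3.27 at day 20 (SE 0.76, FDR 0.0145) and 2.66 at day 30 (SE 0.75, FDR 0.0280) in WT. At day 30 in AD it was not past the threshold. Within the second run these values were 2.73, 3.62, and 2.80, with FDR values from 0.0504 to 0.0581. Leaving out any of AD day 3 replicates 1 and 2, AD day 20 replicates 1 and 3, WT day 20 replicate 2, WT day 3 replicates 1 and 2, or a WT day 30 library ended a call of *Obp56b*.

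*Obp83ef* and *Obp83g* lie 636 bases apart on the same strand of 3R and moved in opposite directions. *Obp83ef*, which carries a pair of OBP domains, had 1.94, 1.11, and 2.97 CPM at day 3, 11.4, 5.13, and 5.50 CPM at day 10, 7.29, 3.95, and 4.15 CPM at day 20, and 8.42, 5.0, and 7.34 CPM at day 30 in AD. In WT it had 0.955, 1.24, and 1.97 CPM at day 3, 6.22, 3.04, and 4.5 CPM at day 10, 6.48, 3.70, and 2.75 CPM at day 20, and 5.58, 3.67, and 3.44 CPM at day 30. All later libraries were above those of day 3 of their genotype. It was called at day 10 in AD, with a log2 fold change of 1.88 (SE 0.45, edgeR FDR 0.0302), a call that was lost within the second run and in 4 of the 24 fits with a library left out. The log2 fold change of day 30 over day 3 was 1.79 in AD (SE 0.45, edgeR FDR 0.0080) and 1.62 in WT (SE 0.46, FDR 0.0274). *Obp83g* had 7.94, 7.36, and 0.783 CPM at day 3, 2.12, 0.919, and 1.25 CPM at day 10, 0.647, 0.847, and 0.558 CPM at day 20, and 0.530, 0.197, and 0.656 CPM at day 30 in AD. In WT it had 5.16, 7.57, and 1.29 CPM at day 3, 1.74, 1.25, and 1.53 CPM at day 10, 0.435, 0.0754, and 0.917 CPM at day 20, and 0.272, 1.06, and 0.809 CPM at day 30. Day 3 was above days 20 and 30 in both genotypes except that AD day 3 replicate 3, with 0.783 CPM, overlapped with day 20. Its log2 fold change of day 30 over day 3 was -3.52 in AD (SE 0.85, edgeR FDR 0.0062) and -2.70 in WT (SE 0.82, FDR 0.0397). In AD the call of *Obp83g* at day 30 held with every library left out, while in WT it was lost in 18 of the 24 such fits. The call of *Obp83ef* at day 30 was lost without AD day 3 replicate 2 in AD, and without WT day 3 replicate 1 or 2 or any WT day 30 library in WT. At day 20 the log2 fold changes were 1.36 in AD and 1.65 in WT for *Obp83ef*, and -2.96 and -3.28 for *Obp83g*, and all 4 calls were lost within the second run. With a library left out, the day 20 call of *Obp83ef* was lost in 18 of the 24 fits in AD and 4 in WT, and that of *Obp83g* in 5 in AD and 4 in WT. *Obp83cd*, whose gene model overlaps the end of *Obp83ef* on the other strand, was not called in any comparison. Reads of the overlap cannot be assigned without strand, and the strand setting of the counting is not given in the sources used here.

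*Obp44a*, the most abundant member, was downregulated with age. In AD heads it had 1857, 1835, and 2882 CPM at day 3, 2275, 2668, and 2244 CPM at day 10, 1419, 948, and 1053 CPM at day 20, and 733, 521, and 592 CPM at day 30. Its WT levels were 1217, 1776, and 2671 CPM at day 3, 2164, 1916, and 2368 CPM at day 10, 1617, 1144, and 1203 CPM at day 20, and 614, 625, and 683 CPM at day 30. Day 30 was below every younger library of its genotype. The log2 fold change of day 30 over day 3 was -1.83 in AD (SE 0.25, edgeR FDR 5.05e-05) and -1.56 in WT (SE 0.25, FDR 0.000495), and both calls held whichever library was left out. Of 5 glial marker genes, 2 were downregulated in the same comparison in AD, *alrm* and *Eaat1* with log2 fold changes of -2.72 and -1.03, and *alrm* alone in WT, with -2.18. In the same list *wrapper* was higher at day 30, with 128, 114.8, and 134 CPM in AD against 71.6, 79.2, and 83.1 CPM at day 3, and 118, 111, and 105 CPM in WT against 58.9, 75.1, and 82.9 CPM at day 3. Its log2 fold changes of 0.69 in AD (edgeR FDR 0.0015) and 0.62 in WT (FDR 0.0064) stayed under the limit on the fold change. The summed level of the 5 glial genes was 449 to 595 CPM at day 30 and 704 to 958 CPM at day 3 in AD, and 506 to 595 CPM at day 30 and 714 to 884 CPM at day 3 in WT. The glial transcription factor gene *repo* was not called. The part of these genes in the fall of *Obp44a* was not tested.

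*Obp19d*, the next in abundance, was higher at day 30. It had 1247, 1308, and 1313 CPM at day 30 in AD, against 725, 486, and 784 CPM at day 3, and 1285, 1331, and 1226 CPM at day 30 in WT, against 632, 469, and 973 CPM at day 3. The groups did not overlap in either genotype. At days 10 and 20 it had 761, 763, and 682 CPM at day 10 and 820.3, 1088, and 1369 CPM at day 20 in AD, and 791, 819, and 883 CPM at day 10 and 986, 1165, and 1062 CPM at day 20 in WT. Its log2 fold change between days 30 and 3 was 0.96 in AD (SE 0.22, edgeR FDR 0.0041) and 0.89 in WT (SE 0.22, FDR 0.0126), which passed the FDR limit and stayed under the limit on the fold change. *Obp19c* was the other member to pass the FDR limit alone between day 30 and day 3 averaged over the genotypes, with a log2 fold change of -0.51 (SE 0.14, edgeR FDR 0.0084).

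**Figure D5:**
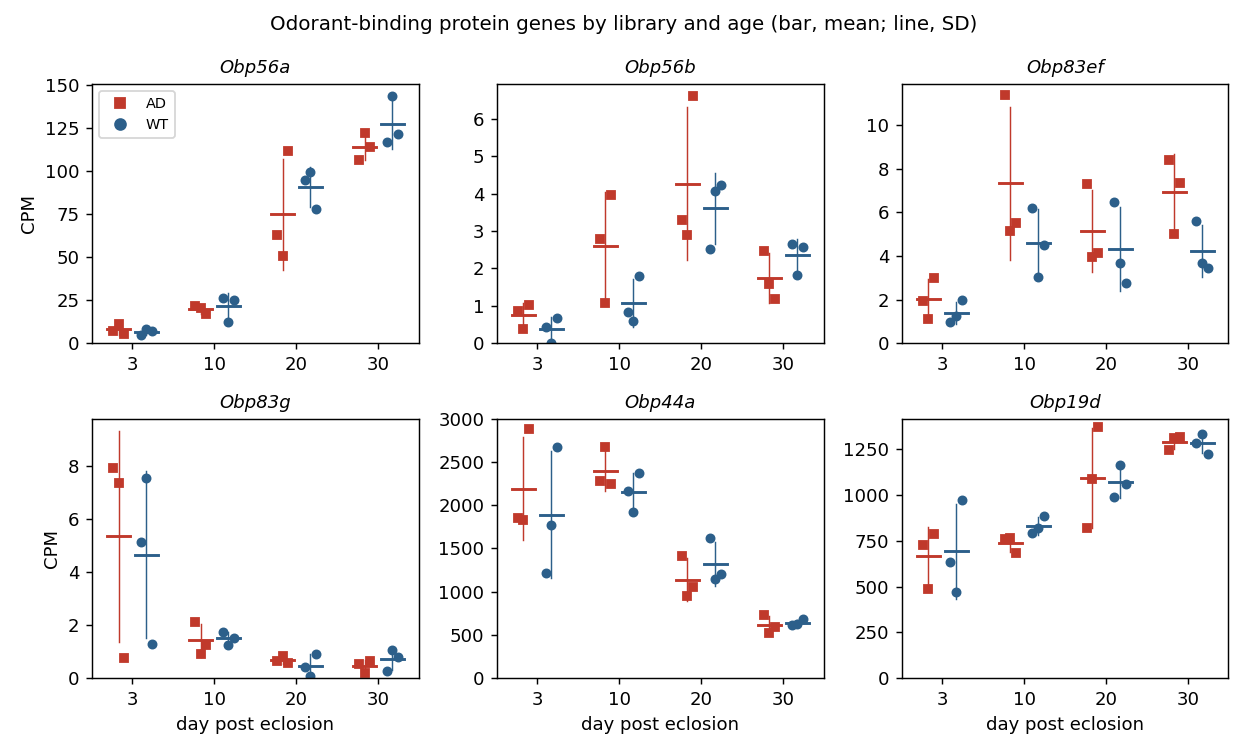
Expression in CPM of 6 OBP genes in each library by day post eclosion, AD (squares) left of WT (circles), with the mean of 3 libraries as a bar and the SD as a line. The means of *Obp56a* and *Obp19d* are highest at day 30, *Obp44a* and *Obp83g* are lower at day 30 than at day 3, and AD and WT follow similar courses.

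*Obp50e*, a member with 37.5 to 378 mean FPKM by group, was called only in the average over the genotypes, with a log2 fold change of 2.49 between day 30 and day 3 (SE 0.82, edgeR FDR 0.0250). In AD heads it had 9.05, 53.2, and 203 CPM at day 3, 42.0, 252, and 374 CPM at day 10, 107, 599, and 822 CPM at day 20, and 472, 494, and 360.1 CPM at day 30. In WT heads it had 7.99, 39.6, and 107 CPM at day 3, 11.7, 61.0, and 287 CPM at day 10, 47.8, 348, and 241 CPM at day 20, and 242, 402, and 330.1 CPM at day 30. Replicate 1, the library of the first run, was the lowest in each of the 6 groups that have both runs, by a median of 3.04 on the log2 scale below the mean of the others. Within the second run the log2 fold change was 1.95 (FDR 0.0030). The call was lost when any of AD day 3 replicates 1 and 2 and WT day 3 replicates 1 and 2 was left out.

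Other members varied strongly between single libraries. *Obp99b*, a fat body protein of male heads, had 147, 109, and 263 CPM at day 3, 1061, 192, and 106 CPM at day 10, 95.9, 71.6, and 33.8 CPM at day 20, and 63.5, 86.1, and 44.3 CPM at day 30 in AD. In WT it had 98.2, 79.6, and 306 CPM at day 3, 1529.9, 216, and 372 CPM at day 10, 309, 141, and 64.5 CPM at day 20, and 70.6, 111, and 43.0 CPM at day 30. Day 10 replicate 1 of both genotypes was far above the rest. In AD every library of days 20 and 30 was below every library of day 3, while in WT these ages overlapped. No comparison of *Obp99b* passed the threshold. The fat body storage protein genes *Lsp1beta* and *Lsp2* were highest in the same libraries, with 839 and 1158 CPM in AD day 10 replicate 1 and 1405 and 2295 CPM in WT day 10 replicate 1. *Lsp1alpha* was lowest in the same libraries of day 10, with 1.29 CPM in AD and 2.66 CPM in WT, against 3.81 to 5.36 CPM in AD and 7.91 to 7.92 CPM in WT in the other replicates, and so was *Yp1*. Among 6 fat body and yolk genes, of which *Lsp1beta* and *Lsp2* were the most abundant at day 10 in replicate 1, the summed level was 356 to 2105 CPM at day 10 and 165 to 609 CPM at day 3 in AD, and 656 to 3816 CPM at day 10 and 107 to 1229 CPM at day 3 in WT. Their part in the level of *Obp99b* was not tested.

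*Obp99a* was called in WT between day 20 and day 3, where its log2 fold change was -3.22 (SE 0.89, edgeR FDR 0.0374). Its WT levels were 0.782, 0.754, and 0.282 CPM at day 20 and 15.0, 0.413, and 1.67 CPM at day 3, so that day 3 replicate 1 alone was high. WT heads had 1.17, 0.858, and 1.17 CPM at day 10, and 0.817, 1.13, and 0.809 CPM at day 30. In AD it had 0.375, 0.494, and 1.44 CPM at day 20 and 0.760, 0.652, and 0.939 CPM at day 3, and it was not called. The other AD ages had 1.84, 1.23, and 2.05 CPM at day 10, and 0.707, 0.263, and 1.05 CPM at day 30. Without both libraries that held accessory gland transcripts the WT value was -0.75, and within the second run it was -0.98 (FDR 0.555). The call was lost in 14 of the 24 fits with a library left out.

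*Obp51a*, *Obp22a*, *Obp56f*, and *Obp56i* are known as seminal fluid proteins of the male reproductive tract. Reads of *Obp51a*, *Obp22a*, and *Obp56i* were found mainly in those libraries, while *Obp56f* was listed in 19 libraries, with 0.847 CPM in AD day 3 replicate 2, 1.18 CPM in WT day 3 replicate 1, and at most 0.565 CPM elsewhere. *Obp51a* had 1.03, 5.6, and 0 CPM in AD and 11, 0, and 0 CPM in WT at day 3, and it was at 0 in all 6 libraries of day 30. Averaged over the genotypes it was called downregulated between day 30 and day 3 with edgeR (FDR 0.0064), and the 3 counts that a sum of 0 over the 6 libraries allows make it at least 89.1-fold lower at day 30 than the mean of day 3. Without WT day 3 replicate 1 the call was lost and the bound was 40.3-fold, and without both libraries with accessory gland transcripts the bound was 7.79-fold. This last bound rests on AD day 3 replicate 1 alone, since the other day 3 libraries left were at 0. In AD day 3 replicate 1 the 8 genes of the accessory gland and testis summed to 4.94 CPM, against at most 0.391 CPM in those other libraries. *Obp22a* had 1.11 CPM in AD day 3 replicate 2 and 2.14 CPM in WT day 3 replicate 1, and at most 0.239 CPM elsewhere. *Obp22a* and *Obp56f* were too low to be tested, with means of up to 2.72 and 1.40 FPKM by group, and *Obp56i* stayed below 1 FPKM. In the same libraries, *Acp26Aa* had 17.5 CPM in AD day 3 replicate 2 and 34.7 CPM in WT day 3 replicate 1. The sperm gene *Mst87F* was high in WT day 3 replicate 1 alone of these, with 49.6 CPM, against 0.0652 CPM in AD day 3 replicate 2. The 8 genes of the accessory gland and testis summed to 0.0681 to 5.29 CPM outside the day 3 groups and to as much as 99.8 CPM in AD and 370 CPM in WT at day 3.

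No comparison of the remaining abundant members passed the threshold. *Obp99c* had 639, 462, and 847 CPM at day 3, 773, 672, and 608 CPM at day 10, 393, 640.2, and 470.4 CPM at day 20, and 569, 729, and 725 CPM at day 30 in AD heads. In WT heads the levels of *Obp99c* were 518, 447, and 762 CPM at day 3, 694, 522, and 778 CPM at day 10, 532, 507, and 359.7 CPM at day 20, and 537, 537, and 416 CPM at day 30. The genotypes overlapped at days 3 to 20 and not at day 30, when AD was higher by a log2 fold change of 0.44 (SE 0.24, edgeR FDR 0.719), not past the threshold. *Obp56d* had 408, 276, and 364 CPM at day 3, 321, 371, and 461 CPM at day 10, 379, 458, and 689.9 CPM at day 20, and 413, 421, and 342 CPM at day 30 in AD heads. In WT heads the levels of *Obp56d* were 338, 236, and 439 CPM at day 3, 349, 319.7, and 469.7 CPM at day 10, 342, 522, and 442 CPM at day 20, and 446, 439.8, and 494 CPM at day 30. Here too the genotypes were apart at day 30 alone, and AD was lower, with a log2 fold change of -0.23 (SE 0.24, edgeR FDR 0.964), again not past the threshold. *Obp56g* had 200.4, 211, and 266 CPM at day 3, 116, 214, and 183 CPM at day 10, 166, 169, and 232 CPM at day 20, and 198, 182, and 42.0 CPM at day 30 in AD heads. In WT heads the levels of *Obp56g* were 259, 153, and 286 CPM at day 3, 165, 181, and 267 CPM at day 10, 169, 185, and 166 CPM at day 20, and 107, 162, and 161 CPM at day 30. The lowest level came from the library labelled AD day 30 replicate 3. *Obp19b* was likewise at 1.25 CPM in that library, against 15.7 to 25 CPM in the other AD libraries and 10.8 to 25 CPM in WT. In no comparison were *Obp18a*, *Obp19b*, *Obp28a*, *Obp47a*, *Obp49a*, *Obp56d*, *Obp56e*, *Obp56g*, *Obp56h*, *Obp57a*, *Obp57b*, *Obp57c*, *Obp57d*, *Obp83cd*, *Obp8a*, *Obp99b*, or *Obp99c* past the threshold. *Obp49a*, a protein of taste hairs that takes part in the response to bitter compounds, averaged 336 FPKM, and *Obp57d*, which with *Obp57e* serves taste in the legs, 3.70 FPKM. The gene model of *Obp57d* was 3361 bases long in the first run and 3822 in the second and includes a transcript that the authors added, and *Obp57e* was listed only in the first run. Values of the Obp57 genes and *Obp50e* include fractional counts shared between overlapping or similar transcripts, and *Obp50b* and *Obp50c* had identical values throughout, so these are uncertain. The 14 members below 1 FPKM reached maximum group means of 0.0233 to 0.97 FPKM, and among them *Obp56c* was listed in 21 libraries and *Obp58b* in 14.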

How the data were processed

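RNA was measured in male heads of AD and WT flies at days 3, 10, 20, and 30 post eclosion, 3 libraries in each group, by paired-end poly(A) RNA-seq. The authors filtered reads with SOAPnuke 1.5.2, aligned them with HISAT 2.0.4 to release 6.11, and quantified genes with RSEM, whose version and strand setting are not given in the sources used here. They deposited expected counts (estimated fragments per gene, not normalized) and FPKM values per library, with genes above 0 listed. An unlisted gene was taken as 0. Gene lengths of transcripts that the authors added fell into 2 sets, which were taken as processing runs. Symbols and positions came from the Ensembl 115 annotation, release 6.

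Expected counts were rounded and analysed with edgeR 4.0.16 in R 4.3.3 (TMM scaling, filterByExpr, quasi-likelihood test, 8 groups, no covariate). P-values were adjusted by the Benjamini-Hochberg method over all tested genes. A call needed an FDR under 0.05 and an absolute log2 fold change over 1, and the joint interaction the FDR alone. DESeq2 1.42.0 and limma 3.58.1 on log2(FPKM + 1) or log2(FPKM + 0.1) were alternatives, beside another scaling, other filters, the replicate number or the processing run as a term, the second run alone, the groups compared alone, and each library left out. The scripts were tested on simulated data. Members with a mean of at least 1 FPKM in some group are each named. Values per library are given for members called in any comparison, for the 6 most abundant, and for *lush*, *Obp83a*, and *Obp83b*, and *Obp28a* is added by its range. The members and gene lists were chosen with earlier results of these data known. Library totals are expected counts, and their precision covers counting error only. *Obp46a* was not analysed here.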

Additional observations from a re-analysis of the deposited data

How the results depend on the processing

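Of 59 OBP gene results tried under the alternatives, 33, those not called to begin with included, kept their direction and their side of the threshold throughout. Over all 2119 alternative values 1931 kept both, 188 lost a call, and 0 changed direction. Numbers of called OBP genes moved by over 1.5 times as follows, and the cause was not tested except where fewer samples enter a fit. Between day 10 and day 3, AD had 2 calls, against 4 with DESeq2, 0 in the second run alone, 1 without the libraries with accessory gland transcripts (chosen after seeing the data), and 0 with only the groups compared. WT had 1, against 2 with DESeq2, with the replicate block, or with the run as a covariate, and 0 in the second run, without the 2 doubted libraries (AD day 30 replicate 3, and WT day 3 replicate 2, where the yolk protein gene *Yp1* had 38.3 CPM against 0.521 to 2.5 CPM in the other day 3 libraries), without the accessory gland libraries, or with only the groups compared. Between day 20 and day 3, AD had 11, against 6 with only the groups compared. WT had 5, against 3 with no filter on low counts, with limma on log2(FPKM + 1), or without the doubted libraries, 2 without the accessory gland libraries, and 1 in the second run or with only the groups compared. Between day 30 and day 3, AD had 11, against 7 without the accessory gland libraries and 6 with only the groups compared. WT had 5, against 9 with DESeq2, 8 with the replicate block, 3 without the doubted libraries, and 2 without the accessory gland libraries. With each library left out, the calls ranged from 0 to 2 (AD day 10), 7 to 12 (AD day 20), 6 to 12 (AD day 30), 0 to 2 (WT day 10), 1 to 6 (WT day 20), 2 to 8 (WT day 30), and 12 to 17 (day 30, both genotypes). The comparisons of AD with WT at single days and of the age effect between genotypes stayed at 0, and the average of AD against WT at 1. No label says that a replicate number marks a shared batch or day, so the numbers were not taken as pairs and the main fit has no term for them. Deviations of same-numbered AD and WT libraries did correlate, with r over 0.1 in 8 of 12 pairs. As a hint from the data, the mean r was 0.364 for the same number (range -0.113 to 0.805) and -0.172 for different numbers, and 16 of 24 libraries correlated best with their own number. Before day 30, replicate 1 was the first run in both genotypes, so its number and the run cannot be told apart. At day 30, all in the second run, same-number r was -0.0566, 0.0462, and -0.113. Deviations within a group sum to 0, so a positive same-number r pulls the others below 0. With the replicate block AD had 12 calls at days 20 and 30. Genes near 1 CPM rest on few counts, so small differences in *Obp99d*, *Obp56b*, and *Obp83g* could not be resolved at this depth.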

Other observations

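The chemosensory proteins of the OS-D family are another group of small secreted binding proteins. Of 4 tested members, *a10* alone was called, with a log2 fold change of day 30 over day 3 of 4.56 in AD (edgeR FDR 0.000802) and 3.06 in WT (FDR 0.0163). This is the same *a10* that was counted above among the antennal genes. Its levels in AD were 49.4, 44.2, and 21.6 CPM at day 30 and 0.608, 1.82, and 2.74 CPM at day 3, and in WT 22.6, 22.7, and 16.7 CPM at day 30 and 2.25, 1.65, and 3.56 CPM at day 3. The groups did not overlap in either genotype. *EbpIII* was abundant throughout, with 1518 to 3046 CPM in AD and 1553 to 2727 CPM in WT. *Phk-3* and *CG30172* were not called in any comparison.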
